A study of Arabidopsis thaliana and Zea mays subsp. mays with 14 samples.

Results

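Crude nuclei from Arabidopsis thaliana seedlings were set against sorted nuclei from such seedlings, each with 2 ATAC-seq libraries. The 4 libraries were chosen by their sample titles, which read 50k crude nuclei and 50k seedling nuclei, each with replicate 1 and replicate 2. They are 4 of 14 samples in the series, and 4 of the 10 for which a list of called regions was analysed here. Their lists hold 101575 of the 249407 regions in those 10 lists. All 4 come from 50000 nuclei of Col-0 wild-type plants, taken as whole seedlings at 7 days, grown for 7 to 8 days under 16 hours of light and 8 hours of dark on medium with 1% sugar. The word crude is all that the sources used here say about the first preparation: the assay name in the titles and the protocol text, which describes chopping, a density gradient and sorting, are the same for crude and sorted samples. Further libraries share the spread estimate or serve as values beside the comparison. They are 2 from 500 sorted seedling nuclei, 2 from 50000 sorted root nuclei, and 2 from 50000 nuclei of seedlings carrying 35S:H2AX-GFP, a transgene that makes a fluorescent histone variant H2AX from a viral promoter active in most plant tissues. Nothing states that replicate libraries were made from different plants, so every p-value below reflects how far these libraries differ, and part of that may be technical.

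In ATAC-seq the transposase Tn5 inserts sequencing adapters into DNA not wrapped in nucleosomes, so called regions mark open chromatin, above all promoters and other regulatory DNA near genes. A crude plant nuclei preparation also carries plastids, mitochondria and cell debris, and organelle DNA, which has no nucleosomes, is readily cut by Tn5. Fluorescence-activated sorting takes stained nuclei out of such a mixture. The lists analysed here hold regions on the 5 nuclear chromosomes, without read numbers. Sequencing depth is therefore unknown, and organelle reads were not analysed here.

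Regions from crude nuclei were shorter than those from sorted nuclei and covered less of the genome, while their number overlapped. There were 23699 and 26941 regions in the crude libraries, against 27632 and 23303 in the sorted libraries. These regions covered 13.8 and 19.3 Mb in crude libraries, against 22.4 and 21.0 Mb in sorted libraries. The number of regions overlapped between the groups, and the covered length did not. Covered length averaged 16.5 ± 3.88 Mb in crude libraries and 21.7 ± 0.974 Mb in sorted libraries (SD, n = 2 each), a difference of -5.18 Mb. An exact two-sided permutation test gave p = 0.333, which is the smallest p that 2 libraries against 2 allow, so no such gap can pass a threshold of 0.05 in this design. Without crude replicate 1 the difference was -2.44 Mb, and without crude replicate 2 it was -7.93 Mb. Libraries of the other groups ranged from 13.9 to 24.6 Mb, which takes in both sorted libraries and crude replicate 2. Crude replicate 1 lay just below that range, so a short covered length was not particular to crude nuclei.

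Median region width was 453 and 552 bp in crude libraries, against 634 and 652 bp in sorted libraries. Wide regions showed the same order. Regions of 1000 bp or more made up 11.7% and 19.5% of the crude lists, against 24.6% and 29.9% of the sorted lists. Regions of 3000 bp or more counted 87 and 248, against 453 and 759. In libraries of the other groups, median width ranged from 409 to 650 bp, which takes in both crude values. Their share of regions of 1000 bp or more ranged from 14.1% to 29.8%, which takes in crude replicate 2. Each of the 5 chromosomes had less of its length covered in both crude libraries than in both sorted libraries. Chromosome 2, for example, was covered over 11.2% and 15.7% in crude libraries, against 18.6% and 17.9% in sorted libraries. The 2 crude libraries differed from each other by more than the 2 sorted libraries did in covered length and in median width, and replicate 1 was the lower of the pair in both.

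Crude replicate 1 stood apart from the 3 other libraries in where its regions lay, while crude replicate 2 was close to the sorted libraries. Spans of protein-coding genes held 55.3% and 42.7% of covered bases in crude libraries, against 42.1% and 44.0% in sorted libraries. These spans make up 54.1% of the chromosomes. The flanks, within 1000 bp of a protein-coding gene, held 33.5% and 41.3% in crude libraries, against 41.2% and 40.1% in sorted libraries, where they make up 20.4% of the chromosomes. The rest of the genome outside genes, flanks and pseudogenes held 10.6% and 15.5% in crude libraries, against 16.2% and 15.4% in sorted libraries.

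Among the 6 libraries of the other groups, the share in protein-coding spans ranged from 40.4% to 49.6%, so crude replicate 1 lay above all of them. In absolute terms it covered 7.62 Mb of these spans, against 9.43 and 9.25 Mb in the sorted libraries, and only 4.62 Mb of flanks, against 9.22 and 8.43 Mb. Crude replicate 2 covered 8.22 Mb of spans and 7.96 Mb of flanks. The group difference in the share in spans was 5.95 percentage points with both crude libraries (exact permutation p = 0.667). It was -0.367 percentage points without crude replicate 1 and 12.3 without crude replicate 2. The gap in shares thus rests on 1 library, and values below are given by library.

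**Figure D1:**
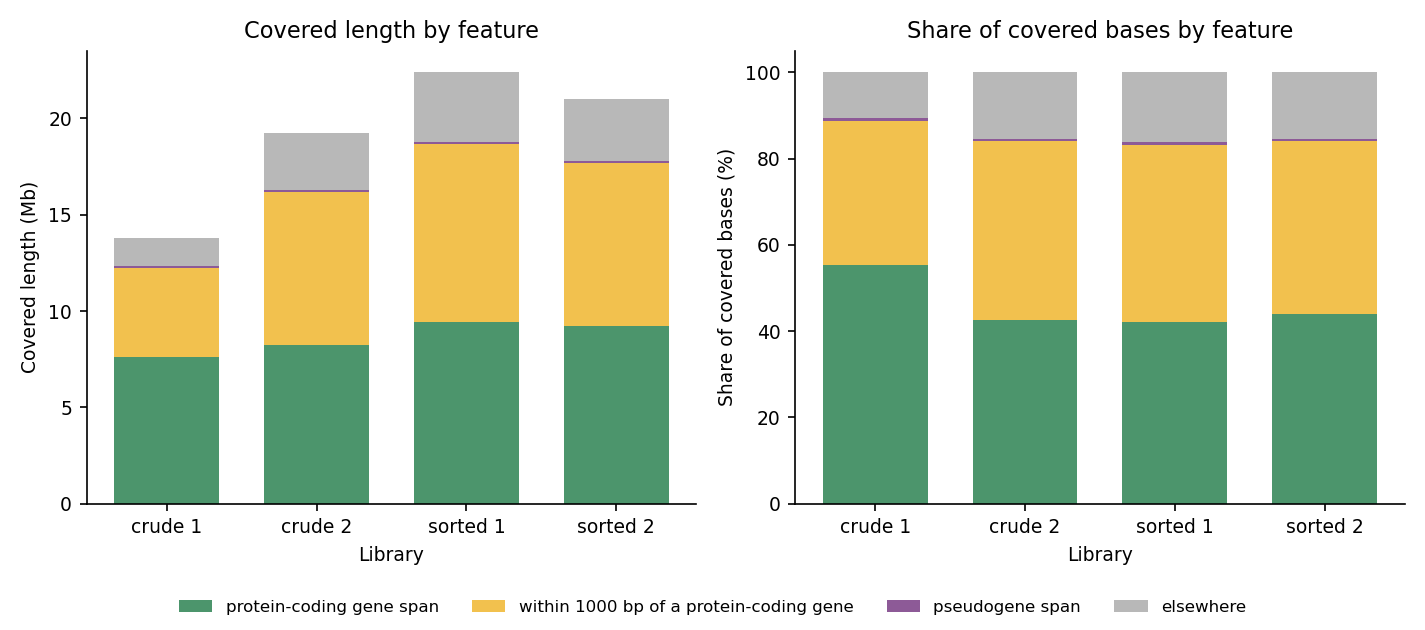
Covered length in Mb (left) and share of covered bases in percent (right) for the 2 crude and 2 sorted seedling libraries, stacked by genomic feature. The crude libraries cover 13.8 and 19.3 Mb, against 22.4 and 21.0 Mb in the sorted libraries, and crude replicate 1 has 55.3% of its covered bases in protein-coding gene spans, against 42.7% in crude replicate 2 and 42.1% and 44.0% in the sorted libraries.

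Small RNA genes differed by class. Of 287 snoRNA genes, whose products guide chemical modification of ribosomal RNA, 129 and 105 held a covered base in crude libraries, against 151 and 185 in sorted libraries. Of 326 miRNA genes, 57 and 62 did in crude libraries, against 73 and 74 in sorted libraries. Both classes were covered less often in each crude library than in each sorted library, with exact permutation p = 0.333 for each. The 6 other libraries ranged from 109 to 169 snoRNA genes and from 43 to 95 miRNA genes, so for miRNA genes they span the values of both groups. The tRNA genes, which RNA polymerase III transcribes, did not separate the groups: 480 and 455 of 625 were covered in crude libraries, against 477 and 483 in sorted libraries. The same held for the 82 genes of spliceosomal snRNAs and related small nuclear RNAs, with 51 and 53 covered in crude libraries, against 54 and 50 in sorted libraries.

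Gene-poor stretches were thinly covered in both preparations. In windows of 500 kb with under 50% of the median number of protein-coding genes (130), regions covered 2.52% and 4.30% of bases in crude libraries, against 5.61% and 5.92% in sorted libraries. The other windows were covered over 13.2% and 18.4% in crude libraries, against 21.3% and 19.9% in sorted libraries. Pseudogenes held a covered base in 175 and 185 of 3917 cases in crude libraries, against 218 and 190 in sorted libraries.

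A copy of mitochondrial DNA inserted in chromosome 2, where reads from the mitochondrial genome can map, had more covered bases in both crude libraries. It was bounded here by locus tags. Regions covered 4675 and 5353 bp of it in crude libraries, against 4594 and 3419 bp in sorted libraries, or 1.303% and 1.49% of its bases, against 1.28% and 0.953%. Over a shorter stretch, chosen after the annotation had been seen because the first reaches past the insertion, the shares were 1.58% and 1.59% in crude libraries, against 1.15% and 1.00% in sorted libraries. The groups did not overlap in either case (exact permutation p = 0.333). Over the shorter stretch the 6 other libraries ranged from 1.03% to 1.84%, which takes in both crude libraries and sorted replicate 1. Sorted replicate 2 lay below that range.

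Coverage was highest at or within 50 bp of gene ends in all 4 libraries. As the annotation used gives no strand, each of the 2 ends of a gene was counted, so promoters and the ends of transcription units are pooled. At the end itself, 31.0% and 42.5% of protein-coding gene ends were covered in crude libraries, against 46.7% and 41.8% in sorted libraries. At 500 bp outside the gene the shares were 16.6% and 24.01% in crude libraries, against 28.4% and 27.4% in sorted libraries, and from 250 to 2000 bp outside both crude libraries lay below both sorted libraries at every distance measured. Inside genes the picture by library was different. At 500 bp inside, 10.9% and 8.47% of ends were covered in crude libraries, against 10.5% and 13.4% in sorted libraries.

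Set against its own value at the gene end, coverage 500 bp inside was 0.353 and 0.199 in crude libraries, against 0.225 and 0.321 in sorted libraries. Crude replicate 1 had the highest of these ratios and crude replicate 2 the lowest. At 1000 bp outside, the ratio was 0.398 and 0.415 in crude libraries, against 0.437 and 0.448 in sorted libraries, and the groups did not overlap (exact permutation p = 0.333).

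**Figure D2:**
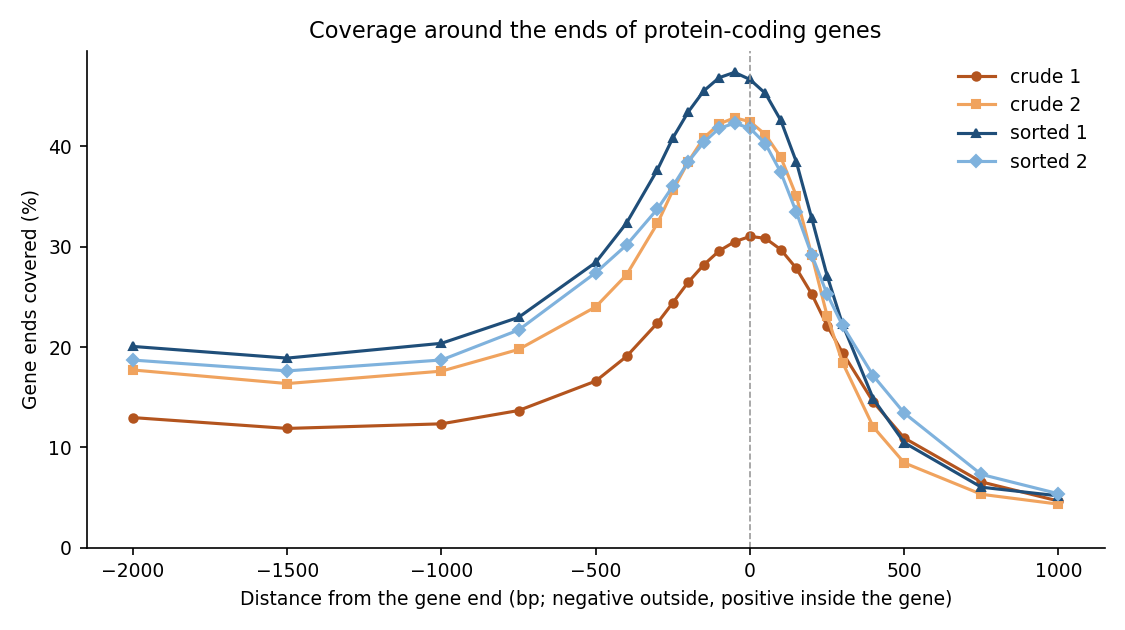
Share of protein-coding gene ends covered by a called region, in percent, at distances in bp outside (negative) and inside (positive) the gene, with a line per library. Crude replicate 1 runs lowest outside genes and at the end itself, where it covers 31.0% of ends, and meets the other libraries inside genes.

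Interiors, the part 200 bp or more inside both ends, separated the groups in genes of 2000 bp or more. These shares are not scaled by covered length, which was also lower in both crude libraries. In genes of 2000 up to 3000 bp, regions covered 9.86% and 8.68% of interior bases in crude libraries, against 10.2% and 11.3% in sorted libraries. In genes of 3000 up to 5000 bp, regions covered 6.86% and 7.04% of interior bases in crude libraries, against 8.63% and 8.70% in sorted libraries. In genes of 5000 bp or more the values were 3.51% and 3.50%, against 4.80% and 4.76%. The group difference in the longest class was -1.27 percentage points, with SDs of 0.0129 in crude and 0.0277 in sorted libraries (n = 2 each, exact permutation p = 0.333). In shorter genes of 1000 up to 2000 bp the groups overlapped, at 13.98% and 11.8% in crude libraries, against 13.3% and 15.1% in sorted libraries. The 6 other libraries ranged from 2.90% to 7.93% in the longest class, a wider range than the 4 values compared.

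Most regions were common to both preparations. Merging the 4 lists gave 28640 regions, of which 16327, or 57.0%, held a called base in all 4 libraries, and these shared regions were the widest, with a median of 1030 bp. By covered bases, the Jaccard index (shared over combined length) was 0.717 and 0.655 for crude replicate 2 with the sorted libraries, close to the 0.700 between the 2 sorted libraries. The index was 0.489 and 0.485 for crude replicate 1 with the sorted libraries and 0.532 for the crude libraries with each other. Crude replicate 2 was thus more like the sorted libraries than like the other crude library. Of the bases of crude replicate 1, 83.2% were covered in crude replicate 2, 86.2% in sorted replicate 1 and 82.5% in sorted replicate 2. Replicate 2 of the 500 sorted seedling nuclei was close to it in covered length: their shared bases were 67.3% of crude replicate 1 and 66.9% of that library. That library had an index of 0.553 and 0.620 with the sorted libraries, which held 93.1% and 96.3% of its bases. Whether covered length accounts for the lower index of crude replicate 1 was not tested.

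Regions that followed the preparation were few. Both crude libraries and neither sorted library covered 208 merged regions, 0.726% of all, and both sorted libraries and neither crude library covered 785, or 2.74%. The counts rest on all 4 libraries: crude-only regions numbered 1284 without crude replicate 1, 1224 without crude replicate 2, 1224 without sorted replicate 1 and 318 without sorted replicate 2. Sorted-only regions numbered 1141 without crude replicate 1, 4036 without crude replicate 2, 1740 without sorted replicate 1 and 2878 without sorted replicate 2. By comparison, 3175 were missing from crude replicate 1 alone, and 976 were found in crude replicate 1 alone. Sorted replicate 1 shared 289 with crude replicate 1 alone and 1422 with crude replicate 2 alone. Sorted replicate 2 shared 118 and 222 in that way. The 208 and 785 thus lie within the range of pairs that cut across the preparations. Regions private to crude replicate 1 had their midpoint in a protein-coding span in 82.7% of cases, against 34.7% for the 1057 private to crude replicate 2, 28.6% for the 1901 private to sorted replicate 1 and 43.3% for the 751 private to sorted replicate 2.

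**Figure D3:**
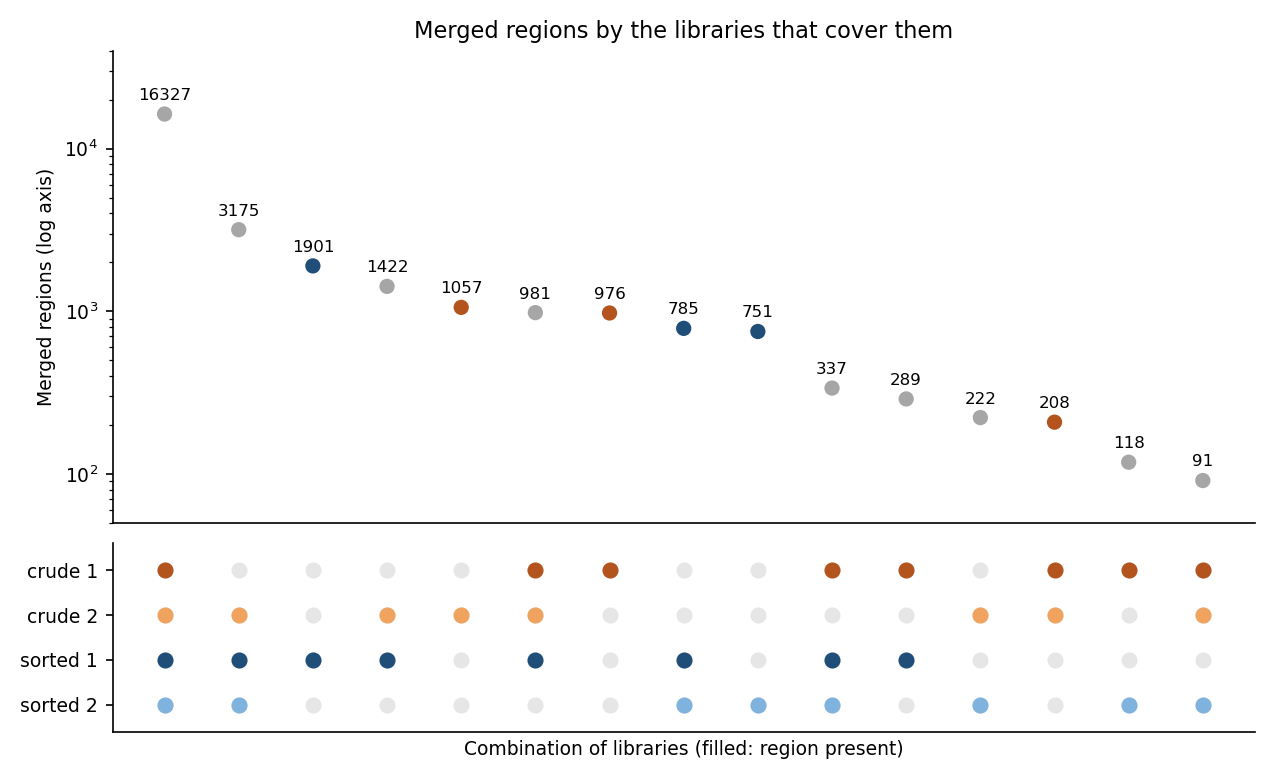
Number of merged regions (log axis) for each combination of the 2 crude and 2 sorted libraries that cover them, with the libraries of a combination filled in below; orange points are combinations of crude libraries, blue points of sorted libraries and grey points of both kinds. The 16327 regions in all 4 libraries lead, followed by 3175 that are missing from crude replicate 1 alone, and the combinations that follow the preparation hold 208 (both crude) and 785 (both sorted).

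The 208 crude-only and 785 sorted-only regions differed in place and in how often libraries outside the comparison held them. Crude-only regions had a median width of 372 bp and lay in protein-coding spans in 63.5% of cases, against 519 bp and 36.1% for sorted-only regions and 702 bp and 39.6% for all merged regions. Both root libraries covered 10.1% of crude-only and 50.1% of sorted-only regions, against 63.4% of all merged regions. Both H2AX-GFP libraries covered 19.7% of crude-only and 66.1% of sorted-only regions, against 74.3% of all merged regions. As sorted-only regions were wider than crude-only ones, width and kind of region cannot be told apart in these shares.

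The widest crude-only region, chr1:5401362-5403042 (TAIR10), covered 1544 and 712 bases in the crude libraries and none in the sorted ones. It overlaps AVP1, a proton-pumping pyrophosphatase of the vacuole, and the adjoining ATPC2, a subunit gene of the chloroplast ATP synthase. The second, chr3:8643318-8644595, lies in BAM1, a beta-amylase gene of starch breakdown, with 1278 and 809 bases in crude libraries. It was also covered in both root libraries, at 1278 and 1083 bases. Next came chr1:7901418-7902551 in UGT85A3, a glycosyltransferase gene, and chr1:2714028-2715040, which overlaps ACHT4, a thioredoxin gene of the chloroplast. The last of the 5, chr1:10668641-10669587, overlaps no annotated gene and lies between AT1G06313, 511 bp away, and AT1G30290, 541 bp away. H2AX-GFP replicate 1 covered all 5 of these regions, with 591 to 1399 bases.

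The widest sorted-only region, chr4:11697366-11699405, lies between AT4G07045, 415 bp away, and WRKY31, 2775 bp away, which encodes a WRKY transcription factor. It covered 2040 and 127 bases in the sorted libraries, 2040 and 2034 in the root libraries, and none in the crude libraries. The second, chr3:8813719-8815693, lies 1235 bp from MYB305, a MYB transcription factor gene, with 1839 and 807 bases in sorted libraries. The others, chr1:13852287-13854190, chr3:16996329-16998226 and chr5:13237662-13239468, overlap AT1G36640, AT3G46260 and GUS3, a glucuronidase gene. Of the widest crude-only regions, 1 of 5 was covered in both root libraries and 4 of 5 in both H2AX-GFP libraries, and of the widest sorted-only regions all 5 were covered in both root and both H2AX-GFP libraries.

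The best-scoring regions were nearly all present in both preparations. The score is the authors' own value per region and served only to rank regions within a list. Of the best 5000 regions of crude replicate 1, 99.8% were touched by a region of sorted replicate 1 and 99.7% by one of sorted replicate 2. For crude replicate 2 the shares were 99.9% and 99.9%. In the other direction, 99.5% of the best 5000 of sorted replicate 1 and 98.9% of those of sorted replicate 2 were touched by crude replicate 1. When set against the best 5000 of the other list, the shares were 80.4% and 77.9% for crude replicate 2 in sorted replicates 1 and 2, and 79.3% for sorted replicate 1 in sorted replicate 2. For crude replicate 1 they were 66.6% and 67.8%.

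Regions in or near the repeats of ribosomal RNA genes held most of the first 5 ranks in each list. The repeats lie at the top of chromosome 2 and on chromosome 3, and the genome carries many more copies than the assembly, so that reads of many copies fall on 1 position and their values are uncertain. The region chr3:14201445-14202913 ranked 2 in crude replicate 1, and the regions over it ranked 3 in crude replicate 2, against 1 in sorted replicate 1 and 4 in sorted replicate 2. The 4 annotated rRNA genes were covered over 78.7% and 42.7% of their bases in crude libraries, against 56.7% and 43.5% in sorted libraries. Outside the repeats, chr3:7103468-7105568, within 1000 bp of AT3G20362 and AT3G20370, ranked 6 and 1 in crude libraries, against 5 and 3 in sorted libraries. Among the best 5000 regions, midpoints lay in protein-coding spans in 46.2% and 31.4% of cases in crude libraries, against 31.6% and 36.1% in sorted libraries, with crude replicate 1 the highest, as over whole lists.

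Open chromatin at single genes was compared by counting covered bases around each gene end, over 1000 bp outward and 200 bp inward, at most 2400 bases for both ends. No gene passed the test. With limma, 0 of 23893 protein-coding genes (0%) reached an adjusted p under 0.05, the lowest adjusted p was 0.254, and 2264 genes had an unadjusted p under 0.05, of which 82 had more and 2182 fewer covered bases in crude libraries. That number was 1083 without crude replicate 1 and 4528 without crude replicate 2. The median difference over all tested genes was -138 bases. It was -26 bases without crude replicate 1, 26.1 after quantile normalization and 33.9 after division by each library's covered length, so its sign depends on how the libraries are scaled. The share of genes with fewer covered bases in crude libraries was 72.5%, against 44.7% after quantile normalization and 43.8% after that division. Both crude libraries lay below both sorted libraries at 7746 genes (32.4% of those tested) and above both at 1692 (7.08%). The mean per gene was 572 and 802 bases in the crude libraries, against 913 and 833 in the sorted libraries.

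Genes whose ends were covered in one preparation alone were rare. The ends of 71 tested genes, or 0.297%, were covered in both crude libraries and at 0 in both sorted libraries. The reverse held for 293 genes, or 1.23%. Both root libraries covered 12.7% of the 71 and 56.0% of the 293, against 81.9% of all tested genes, and both H2AX-GFP libraries covered 15.5% and 75.4%, against 88.4%. Median covered bases, averaged over the libraries that held them, were 242 for the 71 genes in crude libraries and 358 for the 293 genes in sorted libraries.

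The 8 largest crude-only differences were at genes of mixed function. CSLG2, a cellulose synthase-like gene, had 278 and 1193 covered bases in crude libraries and 0 in both sorted libraries. BAM6, a beta-amylase gene, had 85 and 1163, and CRK1, a protein kinase gene, had 363 and 762. ABCI16, which encodes an ABC transporter, had 418 and 443. The other 4, AT5G46825, AT1G01250, AT5G59130 and AT3G27025, had between 70 and 1222 bases in the crude libraries. In all 8, crude replicate 2 had more covered bases than crude replicate 1. H2AX-GFP replicate 1 covered 7 of the 8, with 1156 bases at AT3G27025, while the ends of CSLG2 were at 0 in all 6 other libraries. These counts are of gene ends alone: the interior of CSLG2 was covered in all 10 libraries, with 448 and 887 bases in crude libraries, against 457 and 356 in sorted libraries. Adjusted p-values from limma ranged from 0.406 for AT5G59130 to 0.617 for CRK1. Genes were tested if covered in at least 2 libraries. CSLG2, BAM6 and AT1G01250 passed that filter only through the crude libraries and had to differ, so their p-values are no support.

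The 8 largest sorted-only differences were wider. NF-YC8, a subunit of the NF-Y transcription factor, had 0 covered bases in both crude libraries, against 1742 and 1387 in sorted libraries. BGLU22, a beta-glucosidase gene, had 0 in crude libraries, against 1135 and 986 in sorted libraries and 1423 and 1141 in root libraries. RALFL27, a signalling peptide gene of the RALF family, had 0 in crude libraries, against 1702 and 486 in sorted libraries. LCR36, a gene for a small cysteine-rich protein, had 0 in crude libraries, against 827 and 2091. AT5G38020, AT1G60095, AT1G33612 and AT5G48110 had 0 in crude libraries, against 928 to 1205 in sorted libraries. The lowest adjusted p among them was 0.256, at AT5G38020, with a difference of -1143 ± 179 bases (SE). Of these 8 genes, 6 were covered in both root libraries; the exceptions were LCR36 and AT1G33612.

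**Figure D4:**
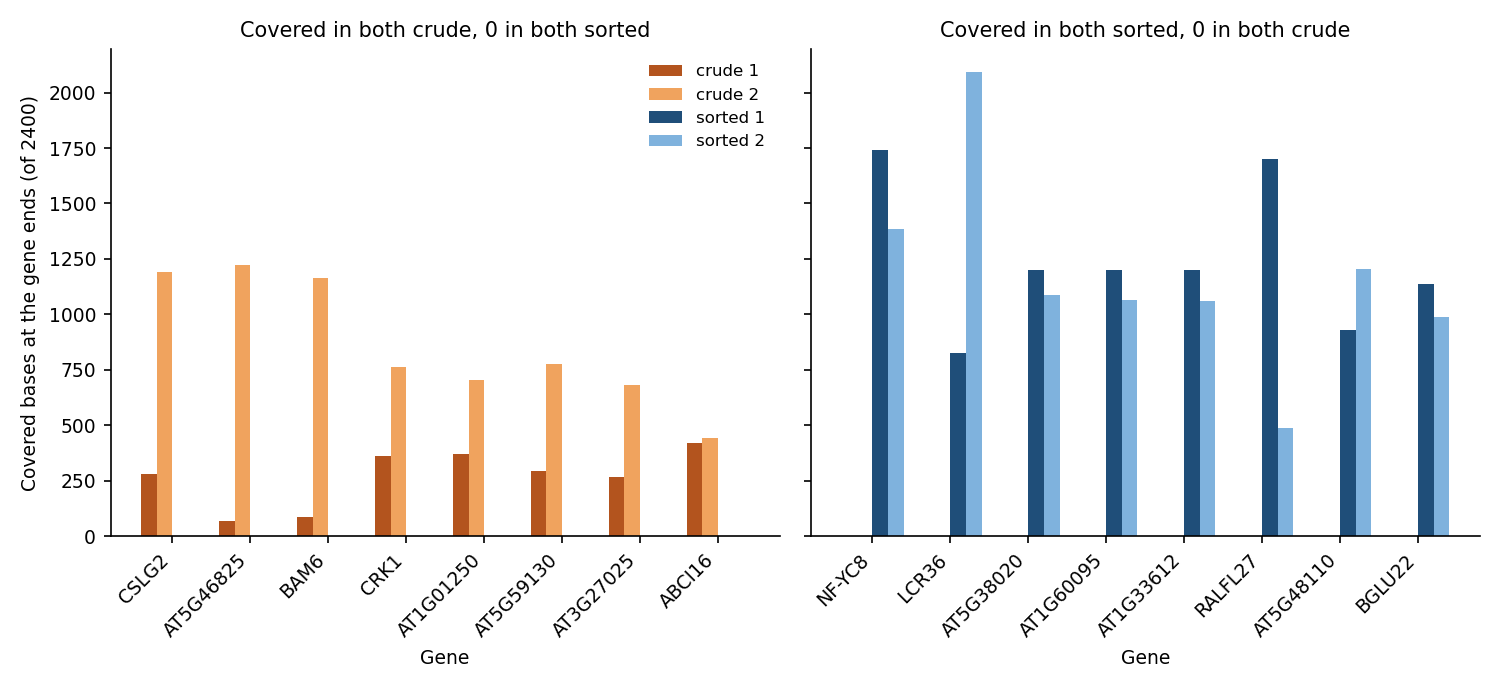
Covered bases at the gene ends, of at most 2400, in the 2 crude and 2 sorted libraries for the 8 genes with the largest mean among those covered in both crude and at 0 in both sorted libraries (left) and for the reverse (right). The crude-only genes reach 1222 bases in a single library and are uneven between the crude libraries, while the sorted-only genes reach 2091 bases. None has an adjusted p under 0.05.

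Gene lists were read for the tissues and responses a seedling nuclei preparation may differ in, 15 lists with 335 genes matched by symbol. None of their members passed the limma test in either direction. In both preparations, photosynthesis genes stood above the mean of all genes and seed genes below it. The trichome, vascular and root identity lists, of tissues that a seedling holds, also lay below it. A low list is therefore no check of the labelled tissue. Photosynthesis genes averaged 1402 and 1364 covered bases in crude libraries, against 1396 and 1783 in sorted libraries. The seed and reproductive list, which seedlings should lack, averaged 259 and 388 bases, against 442 and 310. FUS3, a regulator of seed maturation, was at 0 in all 4 libraries, while CRU3, a seed storage protein gene, had 436 and 504 bases in crude libraries, against 510 and 440. STM, which maintains the shoot meristem, was at 0 in all 4. IRT1, the iron transporter of root epidermis, had 131 and 361 bases in crude libraries, against 333 and 273 in sorted libraries and 1914 and 955 in root libraries.

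Wounding and early stress genes were of interest because chopping precedes both preparations, and none was called. Of the 37, 16 (43.2%) had both crude libraries below both sorted libraries and none the reverse, beside 32.4% and 7.08% of all tested genes, and the median difference was -272 bases beside -138 over all tested genes. The list's median was -111 without crude replicate 1 and -421 without crude replicate 2, beside -26 and -236 over all tested genes. Relative to the mean of all tested genes in the same library, the list stood at 1.34 and 1.47 in crude libraries, against 1.39 and 1.52 in sorted libraries, so the groups overlapped on that scale. The list's median difference was -61.1 bases after quantile normalization and -5.23 after division by covered length, beside 26.1 and 33.9 over all tested genes. MYB51, a regulator of indolic glucosinolates, had the largest negative difference of the list, with 608 and 1208 bases in crude libraries, against 1843 and 1833 in sorted libraries (limma adjusted p = 0.564). WRKY40, a stress-responsive transcription factor gene, had 673 and 650 bases in crude libraries, against 884 and 784. TCH4, a touch-induced cell wall enzyme gene, had 934 and 1411, against 1579 and 2093.

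Clock genes and heat, osmotic and cold genes were the lists whose median difference was above 0, at 13.5 and 22.8 bases, with no member called. The clock value was -11 with windows of 500 bp outward and -24.5 with the better-scoring 50% of regions, beside -92 and -136.5 over all tested genes. Without crude replicate 2 the clock and stress values were -110 and -119.5, beside -236 over all tested genes. Without sorted replicate 2 they were -20.5 and -120.5, beside -171. After quantile normalization they were 231 and 183, beside 26.1, and after division by covered length 260 and 228, beside 33.9. Both lists thus lay above the median of all tested genes wherever both are given here. Other lists did so too after scaling. Photosynthesis and housekeeping genes had median differences of 109 and 101 after quantile normalization, and of 234 and 229 after division by covered length. Relative to the library mean, the clock list stood at 1.71 and 1.40 in crude libraries, against 1.18 and 1.24 in sorted libraries, while the libraries of 500 sorted nuclei stood at 1.39 and 1.36, near crude replicate 2. The heat, osmotic and cold list stood at 1.296 and 1.298 in crude libraries, against 1.08 and 1.01 in sorted libraries. The root libraries stood at 1.26 and 1.31 for the clock list and at 1.221 and 1.31 for the stress list, close to the crude values of the stress list. CCA1, a morning-phased clock repressor, had 1711 and 1156 bases in crude libraries, against 958 and 940 in sorted libraries (limma adjusted p = 0.623). PRR9, a clock gene that represses CCA1, had 1319 and 1359 in crude libraries, against 1115 and 1175, and was, with CCA1, 1 of 2 members of 20 whose crude libraries both lay above both sorted libraries, while 3 of 20 lay below, beside 7.08% and 32.4% of all tested genes. TOC1, an evening clock gene, had 537 and 1200, against 894 and 794.

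RD20, a drought-induced calcium-binding protein gene, had 671 and 1132 bases in crude libraries, against 335 and 311 in sorted libraries. The difference was 579 ± 243 bases (SE, n = 2 each), with a limma adjusted p of 0.523. Using the better-scoring 50% of regions, RD20 had a difference of 771 bases and an adjusted p of 0.0451, the one list member called in that setting. In the H2AX-GFP libraries it had 1272 and 593 bases, which spans the crude values. P5CS1, the enzyme that commits glutamate to proline, had 588 and 555 bases in crude libraries, against 532 and 455. The dehydrin gene ERD10 had fewer, with 1304 and 2124 bases in crude libraries, against 2400 in both sorted libraries. HSP101, a heat-shock chaperone gene, had 39 and 741 bases, against 638 and 692.

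Shoot and root lists lay near the background of all tested genes, and no member was called. In the shoot development list, 7 of 19 tested members (36.8%) had both crude libraries below both sorted libraries and none the reverse, beside 32.4% and 7.08% overall. PHB, a leaf polarity regulator, had 739 and 975 bases in crude libraries, against 2400 and 2010 in sorted libraries, a difference of -1348 ± 346 bases (SE, limma adjusted p = 0.354). In the root nutrient uptake list, 7 of 23 (30.4%) lay below, and AMT1;3, an ammonium transporter gene of roots, had 0 and 543 bases in crude libraries, against 2068 and 1207 in sorted libraries and 2400 in both root libraries. In the root identity list, 6 of 19 (31.6%) lay below and 2 (10.5%) above. LHW, a regulator of vascular cell number, had 196 and 1416, against 2081 and 2012. CASP1, which builds the Casparian strip, had 723 and 966 in crude libraries, against 704 and 157. For these root lists the mean relative to the library was 0.85 and 0.82 in crude libraries, against 0.96 and 0.93 in sorted libraries for nutrient uptake, and 0.49 and 0.59, against 0.75 and 0.53, for identity. In bulk nuclei, fewer nuclei of a cell type and less open chromatin per nucleus cannot be told apart.

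Lists of epidermis, stomata, trichome and vascular markers had their lowest mean in crude replicate 1, while crude replicate 2 was near or above the sorted libraries. The mean of all tested genes was also lowest in crude replicate 1, with 572 and 802 bases in crude libraries, against 913 and 833 in sorted libraries. The cuticle and shoot epidermis list averaged 504 and 1002 bases in crude libraries, against 1036 and 948 in sorted libraries. The stomata list averaged 372 and 796 bases, against 852 and 745, the trichome list 356 and 607, against 505 and 408, and the vascular list 380 and 554, against 623 and 532. Relative to the library mean, the cuticle list stood at 0.88 and 1.25, against 1.13 and 1.14, and the stomata list at 0.65 and 0.99, against 0.93 and 0.89. The trichome list stood at 0.62 and 0.76, against 0.55 and 0.49, and the vascular list at 0.66 and 0.69, against 0.68 and 0.64. On that scale crude replicate 1 was not the lowest for the trichome and vascular lists. KCS6, an enzyme of cuticular wax synthesis, had 1456 and 1757 bases, against 1729 and 1818. LACS2, a cutin synthesis gene, had 334 and 1664, against 1773 and 1691, and EPF2, a peptide that limits stomatal density, 557 and 2344, against 2269 and 1857. GL2, a trichome and root hair regulator, had 582 and 805, against 721 and 246, and SUC2, the phloem sucrose transporter, 512 and 981, against 840 and 872. FAMA, a regulator of guard cell differentiation, had 0 and 101, against 164 and 0. The groups overlapped at each of these 6 genes except LACS2.

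In the list of DNA damage and histone variant genes, 6 of 17 (35.3%) lay below and 1 above, and in the cell cycle list 8 of 23 (34.8%) lay below and 1 above, both near the 32.4% below and 7.08% above of all tested genes. HTA3, a gene for the histone variant H2AX, had 962 and 951 bases in crude libraries, against 1407 and 1914 in sorted libraries, with a difference of -704 ± 326 (SE, limma adjusted p = 0.55). HTA5, the second H2AX gene, had 1080 and 1050 in crude libraries, against 1131 and 1296. CYCB1;1, a mitotic cyclin gene, had 299 and 360, against 281 and 0. The housekeeping list averaged 1105 and 1263 bases in crude libraries, against 1355 and 1371 in sorted libraries, with 8 of 20 below and UBQ5 alone above, beside 32.4% and 7.08% of all tested genes. UBQ10, a polyubiquitin gene, had 1617 and 1795 bases, against 2173 and 2351, and ACT2, an actin gene, 2050 and 1667, against 2059 and 2041.

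**Figure D5:**
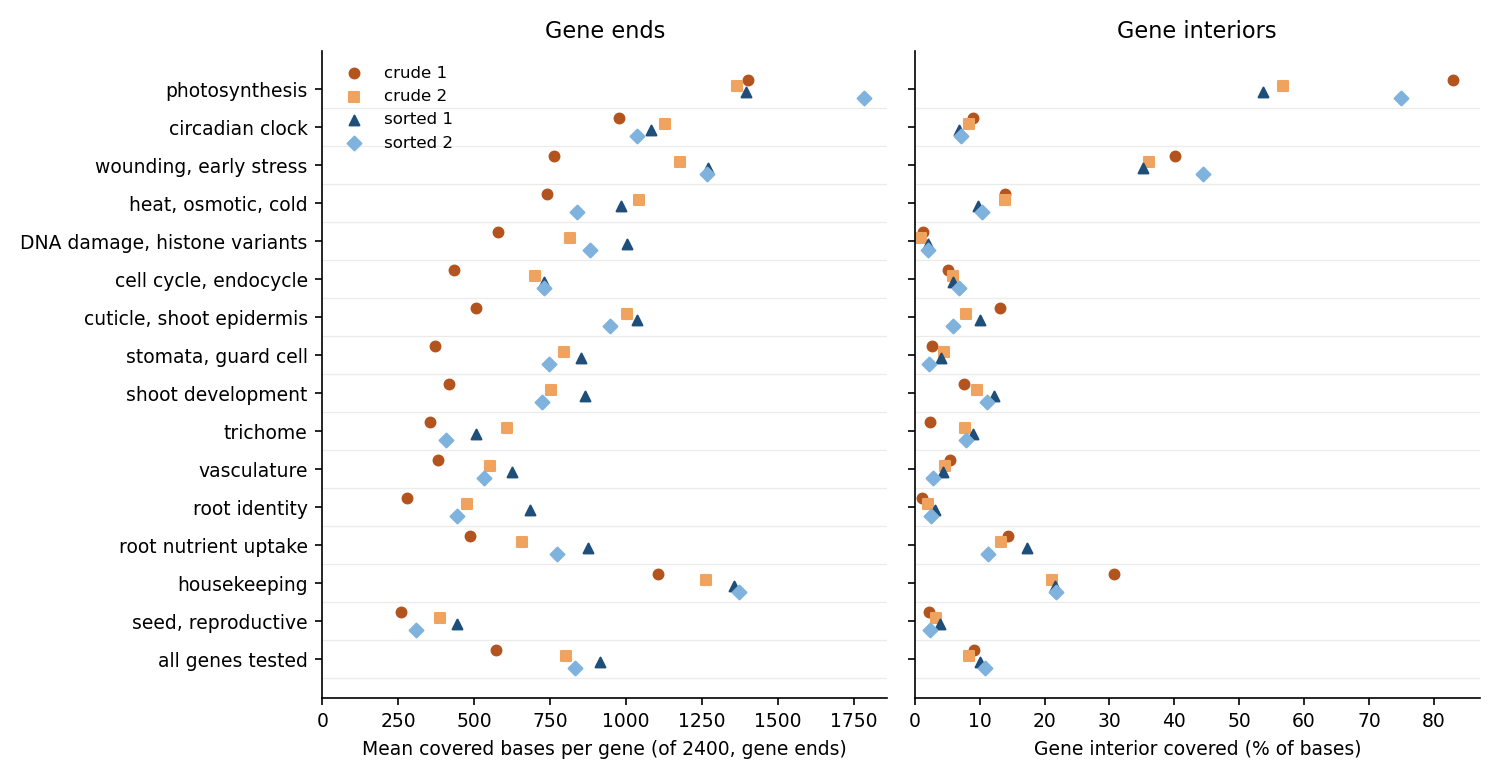
Mean covered bases per gene at gene ends, of at most 2400 (left), and share of interior bases covered in percent (right), for 15 gene lists and all genes tested, with a point for each of the 4 libraries. Among these, crude replicate 1 is the lowest point at gene ends in 14 of the 15 lists and over all genes tested (572 bases). In the interiors it is the highest for photosynthesis (83.0%), housekeeping (30.8%), cuticle (13.2%), clock (9.01%) and vascular genes (5.43%).

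The interiors of photosynthesis genes were covered along most of their length, and among the 4 libraries most in crude replicate 1. Regions covered 83.0% and 56.7% of their interior bases in crude libraries, against 53.7% and 74.9% in sorted libraries, where all tested genes had 9.15% and 8.39%, against 10.0% and 10.8%. The H2AX-GFP libraries, also from seedlings, had 82.0% and 86.5%, near and above crude replicate 1. Of the 46 genes, 40 and 25 had at least 50% of the interior covered in crude libraries, against 22 and 37 in sorted libraries. RBCS1A and LHCB2.2, which encode a small subunit of Rubisco and a light-harvesting protein, were covered over the whole interior in all 4 libraries. RBCS2B, a Rubisco small subunit gene, had 765 and 132 interior bases covered of 765 in crude libraries, against 349 and 765 in sorted libraries. RCA, which encodes Rubisco activase, had 2547 and 1643 in crude libraries, against 1130 and 292, and PSAD-2, a subunit gene of photosystem I, had 556 and 46 of 556, against 31 and 75. In housekeeping genes the interiors were covered over 30.8% and 21.2% in crude libraries, against 21.7% and 21.7% in sorted libraries, and 12 of 20 members had their highest value in crude replicate 1.

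The interiors of heat, osmotic and cold genes were covered alike in both crude libraries and more than in both sorted libraries. They had 13.8% and 13.96% of interior bases covered in crude libraries, against 9.81% and 10.3% in sorted libraries. Divided by the value for all protein-coding genes in the library, that was 1.63 and 1.79, against 1.05 and 1.04. Root libraries stood at 2.01 and 1.63. The H2AX-GFP libraries had 13.97% and 12.4% of these interior bases covered. GOLS1, a galactinol synthase gene of raffinose synthesis, had 883 and 870 interior bases covered in crude libraries, against 572 and 311, and CBF3, a cold-induced transcription factor gene, 232 and 673, against 319 and 259. The clock list had 9.01% and 8.39%, against 6.75% and 7.09%. Wounding genes had 40.1% and 36.1%, against 35.1% and 44.5%, and overlapped.

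A limma fit on gene interiors, chosen after the data had been seen, called 4 of 16015 genes (0.025%) at an adjusted p of 0.0417. AGP3, an arabinogalactan protein gene, had 239 and 218 interior bases covered in crude libraries, against 0 in both sorted libraries, a difference of 228.5 ± 18.0 bases (SE). AT1G72500 had 417 and 433 bases, against 0 and 0, and AT5G05480 had 309 and 311, against 12 and 0. These 3 were called higher in crude libraries, and AT5G61260 was called lower, with 0 in both crude libraries, against 369 and 329 in sorted libraries. AGP3 was covered in the 2 crude libraries alone and AT5G61260 in the 2 sorted libraries alone among all 10, so each passed the filter of 2 covered libraries only through the group where it is high and had to differ. The 6 other libraries had at most 19 covered bases in any of the 4 interiors, and none of the 4 was called when values were divided by the covered length of the library. Without crude replicate 1 the fit called 24 genes, all higher in crude replicate 2, with 2 of the 4 among them.

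Crude replicate 1 had single genes, of any length, covered far into the body. In 65 genes at least 50% of the interior was covered there and under 10% in the 3 other libraries. Crude replicate 2 had 17 such genes and the sorted libraries 47 and 32. The reverse, under 10% in a library and at least 50% in the 3 others, held for 44 genes in crude replicate 1. It held for 29 in crude replicate 2 and for 5 and 7 in the sorted libraries. Whatever the other libraries held, at least 50% of the interior was covered in 1886 and 1561 genes in crude libraries, against 1807 and 2219 in sorted libraries. The 15 genes with the widest gap between crude replicate 1 and the next of the 4 libraries, picked after their values had been seen, had gaps of 1246 to 2942 bp. Ranking by bases favours long genes, and it was done for this library alone. SIP2, a gene of raffinose family sugar metabolism, had 3080 of 4030 interior bases covered in crude replicate 1 and 0 in crude replicate 2, against 0 and 138 in sorted libraries. BGAL1, a beta-galactosidase gene, had 3890 and 381 of 5114, against 355 and 1406. GLDP1, a subunit of the glycine decarboxylase of photorespiration, had 1805 and 407 of 4371, against 119 and 40, and GUN5, a magnesium chelatase subunit of chlorophyll synthesis, 2214 and 762 of 4723, against 306 and 705. GLT1, a glutamate synthase gene, had 2676 and 226 of 9710, against 924 and 646, and 7511 and 4076 in the root libraries. In 12 of the 15, at least 1 of the 6 other libraries covered 50% or more of the bases that crude replicate 1 did, and in 10 of them H2AX-GFP replicate 1 was such a library.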

How the data were processed

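ATAC-seq regions were taken as the authors called them, per library; the deposited lists give chromosome, start, end (position units, "other" values) and the authors' own score, neither whose definition nor the peak caller is stated in these sources. Per the submitters' processing notes the genome build is TAIR10. Genes came from RefSeq on TAIR10.1, joined by position: in 112 of 112 windows of 1000000 bp in each of the 4 libraries, gene ends were covered more often than positions 5000 bp away. This table has no strand or exons, so the planned window around gene starts alone was not run.

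Covered bases per gene were fitted in R 4.3.3 over all 10 libraries with limma 3.58.1, using robust empirical Bayes moderation and a mean-variance trend, in 5 groups, on genes covered in at least 2 libraries, with Benjamini-Hochberg adjustment at 0.05; the contrast is crude minus sorted. Exact permutation tests were two-sided. Scripts were tested on simulated data, in Python 3.11.15. Merged regions join those that overlap, and 1 covered base counts as present. The samples without a list (4, among them genomic DNA) were not analysed here, and the depth is unknown.

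The members and the 15 lists were chosen with earlier results of these data known. Of 357 names, 335 were matched by symbol and used. Genes were named as follows: up to 15 called per direction; the 8 largest differences per direction among genes at 0 in one group, 1 per cluster of overlapping windows; the largest rise and fall per list; 25 genes always considered; and the 5 widest regions per direction. Genes named beyond this rule were chosen after their values were seen. Alternatives were other windows, scalings, filters, region choices and fits, and each library left out.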

Additional observations from a re-analysis of the deposited data

How the results depend on the processing

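The count of genes called at gene ends, 0 in the reported fit, was 38 with the better-scoring 50% of regions, 22 with no filter on low values, 4 in gene interiors and 24 in gene interiors without crude replicate 1, where the lone crude library is assumed to vary like the other groups; it was 0 in the other settings tried, and the lowest adjusted p over the settings at gene ends ranged from 0.0266 to 0.724. Without each library in turn the count was 0 to 0. The cause was not tested. List members called were 1 with the better-scoring 50% of regions and 0 in the other settings run and without each library. Of 1992 values for 108 named genes, 167 changed sign while uncalled, 1 became called (RD20) and 0 reversed. The median width difference moved to -265.5 bp with the better-scoring 50% of regions, and sorted-only regions to 1879 with 50% of a merged region covered and to 429 with the better-scoring 50%. Over the mitochondrial insertion the difference was 0.281 percentage points, and 0.509 over the shorter stretch. With each library left out in turn, covered length differed by -7.93 to -2.44 Mb, the number of regions by -2312 to 2017, the share in coding spans by -0.367 to 12.3 and in flanks by -7.14 to 0.708 percentage points, crude-only regions counted 318 to 1284 and sorted-only regions 1141 to 4036. Leaving out crude replicate 1 reversed the difference in both shares, and leaving out crude replicate 1 or sorted replicate 1 reversed that in the number of regions. Same-numbered crude and sorted libraries did not deviate together (r = -0.020 over 23893 genes), the labels do not pair them, and a replicate block gave 0 calls, with 2472 genes at an unadjusted p under 0.05 in place of 2264. Depth could not be weighed, as the lists hold no read counts. The window around gene starts could not be run without strand.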
